A study of Mus musculus with 10 samples.

Results

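Cells handle oxidants with a set of genes that share the transcription factor NRF2, encoded by Nfe2l2, which the adaptor Keap1 holds in the cytoplasm and passes on for degradation until oxidants or electrophiles modify Keap1. Freed NRF2 enters the nucleus and, with a small MAF partner, binds antioxidant response elements near genes of quinone reduction, glutathione synthesis, thioredoxin and iron storage. Colon epithelium lives beside bacteria and luminal electrophiles, and a glutathione peroxidase, Gpx2, is characteristic of the intestinal lining. The 34 genes described here were taken by name from a table of 56748 genes, and all 34 matched a protein-coding row. They were divided by role into NRF2 with classic targets (4 genes), glutathione (9), thioredoxin and peroxiredoxin (10), NADPH supply (4), iron and haem (4) and the superoxide dismutases (3).

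RNA was sequenced from mouse colon organoids, cultures of intestinal epithelium grown from crypt cells. One group of 5 libraries (replicates 6 to 10) received 100 µM WY-14643, a synthetic agonist of the fatty acid receptor PPARα, and the other 5 (replicates 1 to 5) received vehicle. Treatment lasted 2 days and began 3 days after passage. All 10 libraries carry the same source label, and the labels name no mouse strain, genotype, age, organoid line or culture behind a replicate, so the spread between replicates may be technical. The labels name no group in which PPARα or NRF2 was removed or blocked. FPKM, the unit of every level here, divides a gene's fragments by its length and by the size of its library, so that genes can be compared with each other.

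Behind the FPKM stood 16136440 to 22209003 gene-assigned reads per WY-14643 library, against 15618244 to 29271304 per vehicle library. The epithelial markers Epcam, Cdh1, Krt8, Krt18, Krt20 and Vil1 summed to 2249.9 to 4798 FPKM in WY-14643 libraries and 2364 to 4397 FPKM in vehicle libraries. No fibroblast, immune, endothelial or tuft marker exceeded 0.164 FPKM in any library, and Cd3e, Lyz2, Adgre1 and Dcn were at 0 throughout. The libraries of the 2 groups matched each other in numerical order. Deviations from the group mean correlated between replicates 6 and 1, 7 and 2, 8 and 3, 9 and 4, and 10 and 5 at 0.423 to 0.782 across genes, while the highest correlation of unmatched libraries was 0.0602. The labels state no pairing, so the fit without pairs is the main one, and a matched fit with the pair as a block is given beside it.

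Most antioxidant genes had a slightly higher mean after WY-14643, and none passed the test over all genes. Of the 34, 32 had a mean of at least 0.5 FPKM over the 10 libraries and were tested. Their mean log2(FPKM + 1) was higher in 30 and lower in 2, and the median log2 fold change of WY-14643 over vehicle was 0.15, where the median over all 13607 genes tested was -0.01 and 47.1% of those genes had a higher mean. Without vehicle replicate 4 the members' median was 0.09. With limma and Benjamini-Hochberg adjustment over all genes, 0 of the 32 were higher and 0 lower at an adjusted p under 0.05, in a comparison that called 0% of all genes in either direction. At an unadjusted p under 0.05 there were 3 members higher (Gpx1, Ftl1 and Hmox1) and 0 lower, with 1.01% of all genes higher and 0.492% lower, and voom without pairs also called 0 members. In the matched fit 0 members passed as well, where 0.287% of all genes were called higher and 0.0294% lower, and the smallest adjusted p of a member was 0.0540 (limma, Gclc and Gclm). At an unadjusted p under 0.05 the matched fit had 16 members higher and 0 lower, with 5.48% of all genes higher and 5.09% lower.

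**Figure D1:**
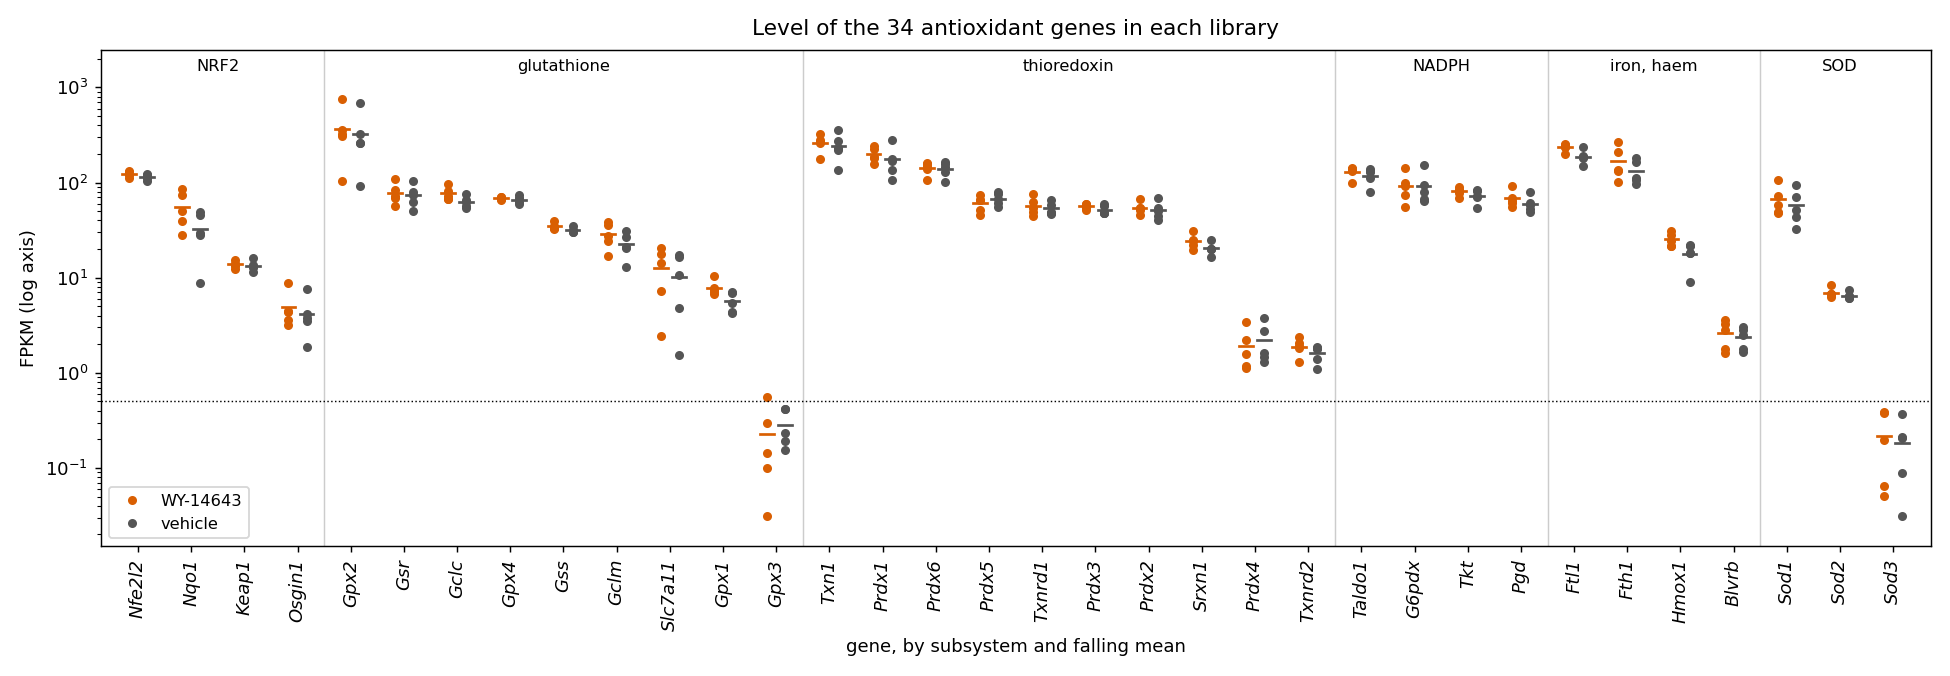
FPKM of the 34 genes in each library on a log axis, grouped by role, with WY-14643 libraries in orange on the left of each gene and vehicle libraries in grey on the right; bars are group means (n = 5 each) and the dotted line is the filter of 0.5 FPKM. The groups overlap in every gene, Gpx2 spans 91.0 to 756 FPKM, and Gpx3 and Sod3 have means below the filter.

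Direction was also read within the matched pairs. The WY-14643 library was the higher one in 5 of 5 pairs for 14 of the 32 genes, where 5.63% of all genes tested showed this, and the lower one in 5 of 5 pairs for 1 gene, Prdx4, where 6.09% of all genes did. These 32 genes share the same 5 pairs and are not independent of each other. No member had groups that did not overlap, a pattern found in 0.243% of all genes in the higher and 0.110% in the lower direction. An alternative added after seeing the data, voom on the reads recovered from FPKM with pairs as a block, called 8 members higher (Nqo1, Gclc, Gclm, Slc7a11, Gpx1, Srxn1, Ftl1 and Fth1) and 0 lower, and it called 1.19% of all genes higher and 0.367% lower. The count of 8 was 9, 5, 3, 4 and 4 when pairs 1 to 5, numbered by their vehicle replicate, were left out in turn. Of all genes tested, these repeats called 84 to 215 higher and 10 to 122 lower. Only Gclc and Gclm passed in that fit in all 5 of these repeats, with a largest adjusted p of 0.0476 for Gclc and 0.0355 for Gclm (voom and limma).

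**Figure D2:**
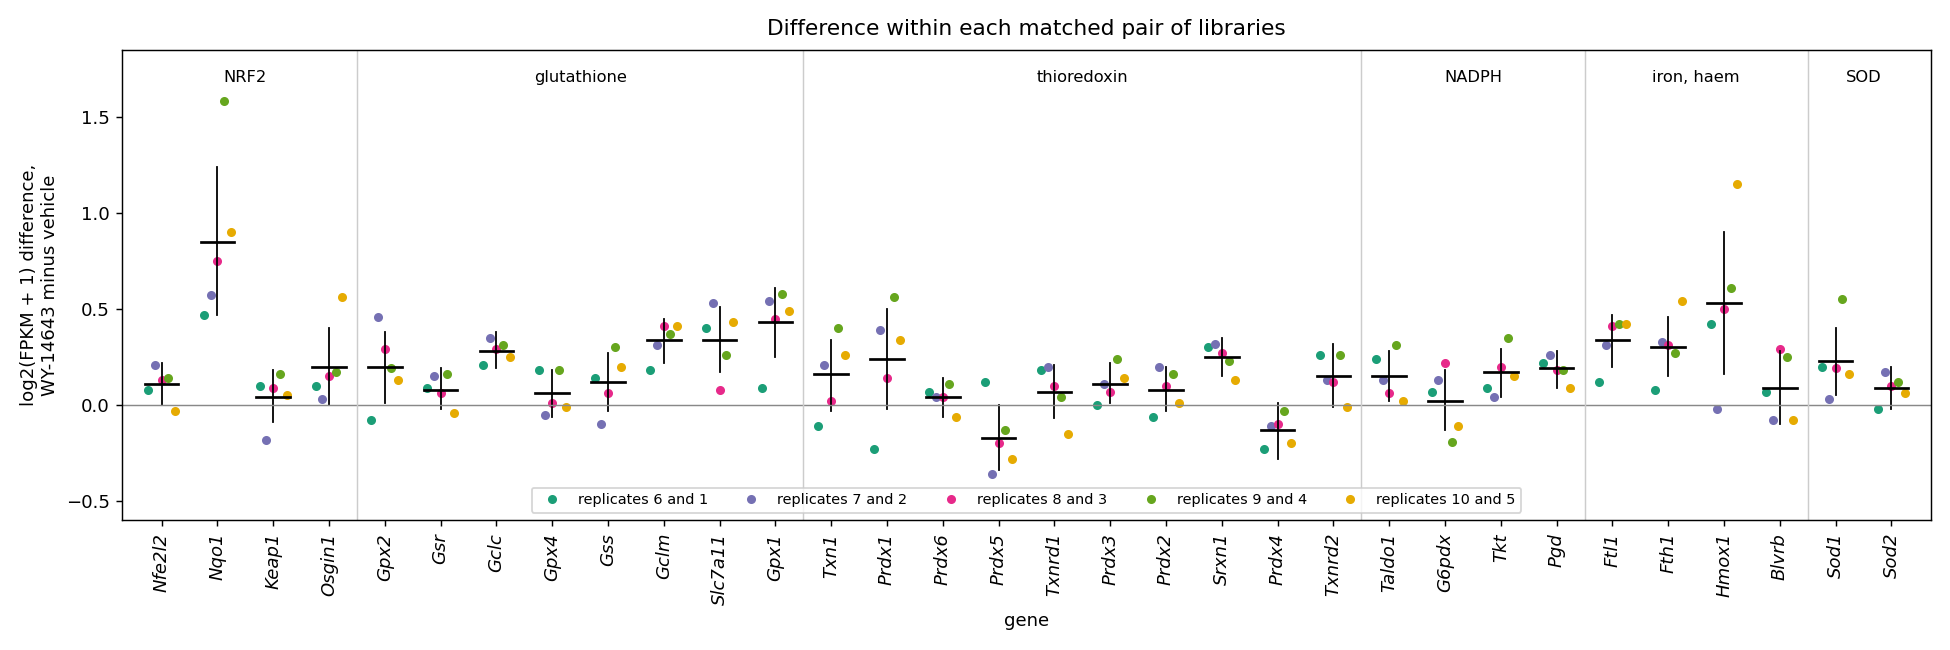
Difference in log2(FPKM + 1), WY-14643 minus vehicle, in each of the 5 matched pairs (coloured points) for the 32 tested genes, with the mean (bar) and the 95% interval of the matched limma fit (line). Nqo1 has the largest mean difference, 0.85, and Prdx5 and Prdx4 the 2 negative ones, -0.17 and -0.13.

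The RNA of NRF2 and of its inhibitor differed little between the groups. Nfe2l2 had 129.6, 119.8, 131, 123 and 111 FPKM in WY-14643 replicates 6 to 10, against 122, 103, 119.9, 111 and 113 FPKM in vehicle replicates 1 to 5. The groups overlapped, and 4 of 5 pairs were higher with WY-14643. The log2 fold change was 0.11 ± 0.05 in the matched fit (limma SE, matched adjusted p = 0.485). Without pairs the 95% interval was -0.08 to 0.30. Keap1 was at 12.4, 13.9, 13.8, 15.4 and 13.4 FPKM in WY-14643 libraries and 11.5, 15.9, 13.0, 13.7 and 12.9 FPKM in vehicle libraries. That is a log2 fold change of 0.04 with a 95% interval of -0.09 to 0.18 in the matched fit. Without pairs the interval was -0.17 to 0.25. Nfe2l2 RNA was thus about as abundant as that of Taldo1, while Keap1 had an FPKM below that of most of the other members.

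Among the classic targets Nqo1, a quinone reductase, had the largest difference of the 32 tested genes with all 10 libraries, though Slc7a11 exceeded it when vehicle replicate 4 or WY-14643 replicate 10 was left out. It was at 39.0, 73.2, 50.4, 28.3 and 86.5 FPKM in WY-14643 replicates 6 to 10, against 27.8, 49.0, 29.7, 8.82 and 45.9 FPKM in vehicle replicates 1 to 5. Each WY-14643 library exceeded its matched vehicle library, although the groups overlapped because libraries of 1 group differed so much. The log2 difference within pairs was 0.47, 0.57, 0.75, 1.58 and 0.90, so the pair of replicates 9 and 4 had the widest gap and also the lowest levels. The log2 fold change was 0.85 with a 95% interval of 0.47 to 1.24 in the matched fit (limma, matched adjusted p = 0.115; 1.0 without pairs, interval -0.14 to 1.84). Without pairs and without vehicle replicate 4 it was 0.46. Osgin1, an oxidative stress-induced growth inhibitor, averaged 4.87 ± 2.24 FPKM in WY-14643 libraries and 4.19 ± 2.14 FPKM in vehicle libraries (SD, n = 5 each). It was higher in 5 of 5 pairs by 0.03 to 0.56 on the log2 scale.

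Promoter sequence was searched for the core of the antioxidant response element, TGACNNNGC, on both strands, the letter pattern that NRF2 is known to bind. The windows came from RefSeq (build GRCm38.p6) and ran from 250 bases before to 50 bases after a gene's start. They were found for 29 of the 34 genes (not for Gclc, Gsr, Prdx6, Hmox1 and Sod3), in 37 windows, of which 8 windows of 8 genes (21.6%) held the core, against 12.4% of all 32851 windows. Each match is shown with 10 bases on either side, read 5′ to 3′ along the strand that carries the core, which is in capitals. They are printed because these 8 genes let a reader set sequence beside response.
Nfe2l2, chr2:75704885-75704913: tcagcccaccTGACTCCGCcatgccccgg
Gclm, chr3:122245413-122245441: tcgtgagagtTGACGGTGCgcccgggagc
Srxn1, chr2:152105542-152105570: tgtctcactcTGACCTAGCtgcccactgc
Prdx1, chr4:116685456-116685484: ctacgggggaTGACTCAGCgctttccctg
Txnrd1, chr10:82859104-82859132: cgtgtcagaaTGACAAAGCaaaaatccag
Pgd, chr4:149166061-149166089: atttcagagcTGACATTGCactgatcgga
G6pdx, chrX:74428919-74428947: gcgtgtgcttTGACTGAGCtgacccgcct
Sod1, chr16:90220696-90220724: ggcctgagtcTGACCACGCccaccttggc
The core lay on the gene's own strand in Nfe2l2 and Pgd and on the opposite strand in the other 6. In 1 of the 8, Prdx1, it also contains TGACTCA, the pattern of AP-1 factors. Counted in bases from the start site, with negative positions before it, the centre of the core lay at -236 in Nfe2l2, -130 in Gclm, -129 in Prdx1, -88 in Txnrd1, -53 in G6pdx, -52 in Sod1, 7 in Pgd and 32 in Srxn1. Of these 8 genes Gclm, Srxn1, Pgd and Sod1 were higher with WY-14643 in 5 of 5 pairs, Nfe2l2, Prdx1 and Txnrd1 in 4 and G6pdx in 3. Of the 20 tested genes with a window and no core, 9 were higher in 5 of 5 pairs, a share close to that 4 of 8. Nqo1 had no match, which says only that these letters are not in its window.

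Both subunits of the first enzyme of glutathione synthesis were higher with WY-14643 in every pair. Glutathione, a tripeptide built from glutamate, cysteine and glycine, is the main small thiol of the cell. Gclc, the catalytic subunit of the rate-limiting glutamate-cysteine ligase, had 73.0, 96.9, 80.7, 67.3 and 67.0 FPKM in WY-14643 replicates 6 to 10, against 63.0, 75.6, 65.8, 53.9 and 56.4 FPKM in vehicle replicates 1 to 5. Gclm, its modifier subunit, had 24.2, 38.2, 27.3, 17.0 and 35.6 FPKM with WY-14643 and 21.2, 30.7, 20.3, 12.9 and 26.6 FPKM with vehicle. In both genes the groups overlapped, yet every pair differed in the same direction, by 0.21 to 0.35 on the log2 scale for Gclc and by 0.18 to 0.41 for Gclm. Their log2 fold changes were 0.28 (95% interval 0.19 to 0.38) and 0.34 (0.22 to 0.45) in the matched fit, and neither passed (limma, matched adjusted p = 0.0540 for each). Without pairs the intervals were -0.00 to 0.57 and -0.23 to 0.90. Both genes were singled out after their values were seen. Gm17494, a long non-coding RNA gene on the opposite strand (0.102 FPKM), covers 58.7% of the Gclm span.

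Slc7a11, the cystine importer that feeds cysteine into glutathione, differed far more between pairs than between groups. It was at 14.4, 7.32, 17.7, 20.7 and 2.45 FPKM in WY-14643 libraries and at 10.7, 4.77, 16.6, 17.1 and 1.55 FPKM in vehicle libraries, a 13.3-fold range over all 10. Its log2 differences within pairs were 0.40, 0.53, 0.08, 0.26 and 0.43, and 96.8% of its sum of squares lay between pairs. Gss, which adds glycine in the last step of synthesis, averaged 34.5 ± 2.81 FPKM with WY-14643 and 31.7 ± 2.14 FPKM with vehicle, with 4 of 5 pairs higher. Acss2 on the opposite strand (7.62 FPKM) covers 76.1% of the Gss span. Gsr, which reduces oxidised glutathione with NADPH, averaged 78.0 ± 20.1 and 73.9 ± 19.8 FPKM in WY-14643 and vehicle libraries (SD, n = 5 each).

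The glutathione peroxidases, which remove peroxides at the cost of glutathione, ranged widely in level. Gpx2, the epithelial form, was the most abundant of all 34 genes, at 308, 355, 322, 104 and 756 FPKM in WY-14643 replicates 6 to 10, against 327, 258, 263, 91.0 and 692 FPKM in vehicle replicates 1 to 5. Replicates 10 and 5 were the highest of their groups and replicates 9 and 4 the lowest, so that 97.9% of the sum of squares lay between pairs and 1.14% between treatments. Gpx2 lies wholly within the span of Fntb on the opposite strand (4.45 FPKM), and whether counting used strand is not given in the sources used here. Gpx4, the phospholipid hydroperoxide peroxidase, was the steadiest of the 34, with a 1.24-fold range over the 10 libraries and means of 68.8 ± 2.24 FPKM with WY-14643 and 66.1 ± 5.40 FPKM with vehicle. Its libraries held 67.4, 70.9, 68.6, 71.1 and 65.9 FPKM with WY-14643 and 59.3, 73.6, 68.0, 62.9 and 66.6 FPKM with vehicle. A transcribed pseudogene, Gpx4-ps2, stood at 26.5 FPKM, and since the sequences are close copies its reads and those of Gpx4 are uncertain.

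Gpx1, the ubiquitous cytosolic peroxidase, had a log2 fold change of 0.43, above the other glutathione genes with all 10 libraries but not without several single libraries. Its FPKM were 7.47, 6.66, 7.82, 7.02 and 10.3 in WY-14643 libraries, against 6.97, 4.25, 5.46, 4.36 and 7.05 in vehicle libraries. The 5 WY-14643 values overlapped the vehicle values only through vehicle replicates 1 and 5. A long non-coding RNA gene on the opposite strand (0.00432 FPKM) covers 84.0% of the Gpx1 span. The low Gpx1 level rests on 99 to 344 reads per library. The 95% interval of its log2 fold change was 0.25 to 0.61 in the matched fit and 0.08 to 0.78 without pairs. It did not pass (limma, adjusted p = 0.0930 matched and 1.0 without pairs). Gpx3, the secreted plasma form, was below the filter at 0.225 ± 0.209 FPKM in WY-14643 libraries and 0.284 ± 0.127 FPKM in vehicle libraries, from 1 to 16 reads per library. Of the 8 tested glutathione genes, the mean was higher in 8, every pair was higher in 4, and 0 passed. Their median log2 fold change was 0.24, or 0.14 without vehicle replicate 4.

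**Figure D3:**
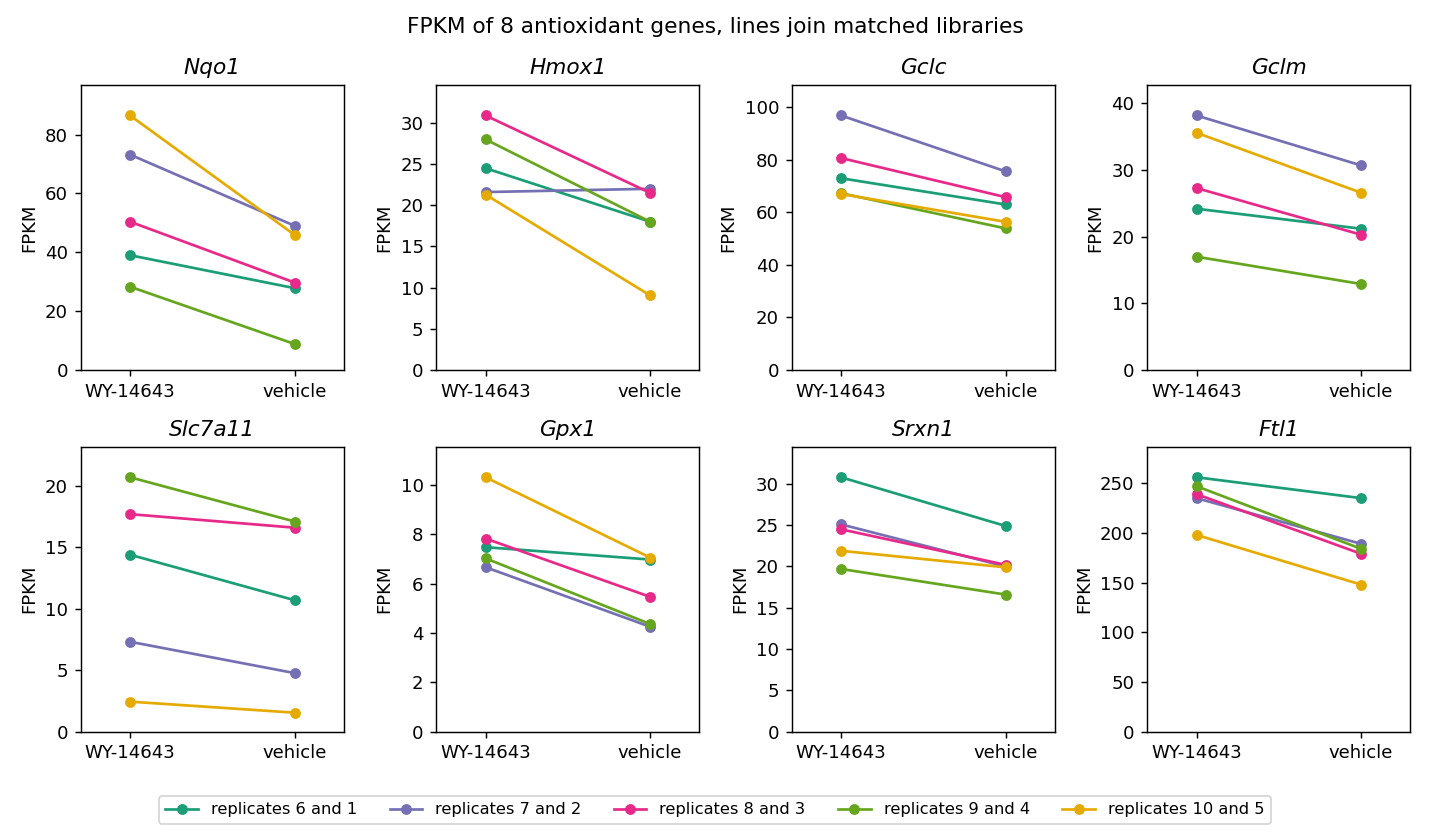
FPKM of 8 of the genes in each library, WY-14643 on the left and vehicle on the right of each panel, with lines joining matched libraries; axes start at 0. In each panel the 5 WY-14643 points lie above their vehicle partners, except in Hmox1, where replicates 7 and 2 are at 21.6 and 22.0 FPKM. These genes were chosen after their values were seen and do not stand for the rest. Of the 32 tested genes, 14 were higher in 5 of 5 pairs.

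Thioredoxin and the peroxiredoxins form the second thiol system, in which Txnrd1 in the cytosol and Txnrd2 in mitochondria reduce thioredoxin with NADPH. Thioredoxin itself, Txn1, was at 327, 265, 278, 178 and 263 FPKM in WY-14643 replicates 6 to 10, against 354, 229, 274, 135 and 219 FPKM in vehicle replicates 1 to 5. It was lower with WY-14643 in pair 1 and higher in the other 4. The log2 fold change was 0.16, with a 95% interval of -0.03 to 0.34 in the matched fit (limma, matched adjusted p = 0.535). Without pairs the interval was -0.39 to 0.70. The reductases averaged 56.9 ± 12.3 and 53.6 ± 8.32 FPKM for Txnrd1 and 1.89 ± 0.392 and 1.60 ± 0.335 FPKM for Txnrd2 in WY-14643 and vehicle libraries (SD, n = 5 each). Each was higher with WY-14643 in 4 of 5 pairs.

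Srxn1, the sulfiredoxin that repairs overoxidised peroxiredoxins, was higher with WY-14643 in every pair. It had 30.8, 25.1, 24.5, 19.7 and 21.9 FPKM in WY-14643 libraries and 24.9, 20.0, 20.2, 16.6 and 19.9 FPKM in vehicle libraries. The pairs differed by 0.13 to 0.32 on the log2 scale, and the log2 fold change was 0.25 (limma, matched adjusted p = 0.0848; 1.0 without pairs). Its 95% interval was 0.15 to 0.35 in the matched fit and -0.05 to 0.54 without pairs. The 6 peroxiredoxins, which are thiol peroxidases, did not move as one. Prdx1 had 242, 180.0, 187, 157 and 226 FPKM with WY-14643 and 283, 137, 169.7, 106 and 178 FPKM with vehicle, lower in pair 1 and higher in the other 4.

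Prdx5, a peroxiredoxin found in mitochondria and peroxisomes among other places, had the most negative log2 fold change on the log2(FPKM + 1) scale, while with a pseudocount of 0.1 and in voom Prdx4 was lower (-0.20 and -0.21, against -0.17 for Prdx5 in each). It was at 65.9, 51.9, 65.7, 73.3 and 45.7 FPKM in WY-14643 libraries, against 60.4, 66.8, 75.6, 80.4 and 55.6 FPKM in vehicle libraries. Pair 1 was higher and the other 4 lower, and the log2 fold change of -0.17 did not pass (limma, matched adjusted p = 0.474). In matched voom the adjusted p of Prdx5 was 0.290 with all pairs. With 1 pair left out it ranged from 0.0231 to 0.63 and passed in 1 of 5 repeats, the one without pair 1. Prdx4, the form of the secretory pathway, was lower in 5 of 5 pairs at a low level, 1.90 ± 0.953 FPKM with WY-14643 and 2.19 ± 1.04 FPKM with vehicle. Mitochondrial Prdx3 averaged 56.0 ± 3.62 and 51.9 ± 5.51 FPKM, Prdx2 54.4 ± 7.85 and 51.8 ± 11.2 FPKM, and the 1-cysteine form Prdx6 143 ± 22.1 and 139.8 ± 25.3 FPKM in WY-14643 and vehicle libraries. The 10 thioredoxin genes thus had 8 higher and 2 lower means, 2 genes higher in 5 of 5 pairs, 0 calls and a median log2 fold change of 0.10, which was 0.02 without vehicle replicate 4 and 0.17 without vehicle replicate 1.

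Glutathione reductase and the thioredoxin reductases draw on NADPH, which the pentose phosphate pathway supplies. The mean of each of its 4 genes here was higher with WY-14643, their median log2 fold change was 0.16, and 0 passed. Without vehicle replicate 4 that median was 0.04, and without WY-14643 replicate 6 it was 0.10. Taldo1, the transaldolase of the non-oxidative branch, was the most abundant, at 132, 142, 139, 99.7 and 140.2 FPKM in WY-14643 replicates 6 to 10, against 112, 129, 133, 80.4 and 138 FPKM in vehicle replicates 1 to 5. Pgd, which makes NADPH in the oxidative branch, had 92.7, 63.4, 69.2, 55.6 and 61.3 FPKM with WY-14643 and 79.7, 52.9, 60.8, 48.9 and 57.6 FPKM with vehicle. Both were higher in 5 of 5 pairs, with log2 fold changes of 0.15 and 0.19. Their 95% intervals were 0.02 to 0.28 and 0.09 to 0.28 in the matched fit. Without pairs they were -0.21 to 0.51 and -0.17 to 0.54. Neither gene passed (limma, matched adjusted p = 0.383 for Taldo1 and 0.147 for Pgd).

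G6pdx, the glucose-6-phosphate dehydrogenase at the entry of the pathway, was at 98.9, 73.5, 92.2, 55.8 and 141 FPKM in WY-14643 libraries and at 94.5, 66.9, 79.0, 63.7 and 152 FPKM in vehicle libraries. It was higher in 3 pairs and lower in 2, and its log2 fold change was 0.02 with a 95% interval of -0.13 to 0.18 in the matched fit. Without pairs the interval was -0.60 to 0.65. Its span lies wholly within that of Ikbkg (15.9 FPKM) on the opposite strand. Tkt, the transketolase, averaged 80.7 ± 7.83 FPKM with WY-14643 and 72.4 ± 12.0 FPKM with vehicle (SD, n = 5 each), and 5 of 5 pairs were higher.

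The iron and haem genes had the largest median of the groups, 0.32 over 4 members. Ftl1, the ferritin light chain that stores iron with Fth1, had 256, 235, 239, 247 and 198 FPKM in WY-14643 replicates 6 to 10, against 235, 189, 179, 184 and 148 FPKM in vehicle replicates 1 to 5. Every pair was higher with WY-14643, and vehicle replicate 1 was the only vehicle library to reach the WY-14643 values. The log2 fold change was 0.34 (limma, matched adjusted p = 0.0830; 1.0 without pairs). Its 95% interval was 0.20 to 0.47 in the matched fit and 0.05 to 0.62 without pairs. A second locus, Ftl1-ps1, which the table lists as protein-coding, had 4.67 FPKM and may share reads with Ftl1. Fth1, the ferritin heavy chain with ferroxidase activity, had 102, 208, 132, 135 and 264 FPKM with WY-14643 and 96.8, 165, 106, 112 and 182 FPKM with vehicle, higher in 5 of 5 pairs by 0.08 to 0.54 on the log2 scale. Light and heavy chains differed in pattern between pairs, with Ftl1 lowest and Fth1 highest in replicate 10.

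Hmox1, the haem oxygenase that releases iron and biliverdin from haem, was at 24.5, 21.6, 30.9, 28.0 and 21.3 FPKM in WY-14643 libraries and at 18.0, 22.0, 21.5, 18.0 and 9.05 FPKM in vehicle libraries. In 4 pairs it was higher and the pair of replicates 7 and 2 differed by -0.02 on the log2 scale. The log2 fold change was 0.53 (limma, matched adjusted p = 0.285). Its 95% interval was wide, 0.16 to 0.90 in the matched fit and 0.05 to 1.01 without pairs. In matched voom Hmox1 had an adjusted p of 0.216 with all pairs. With 1 pair left out it ranged from 0.0149 to 0.523 and passed in 1 of 5 repeats. That repeat left out the pair of replicates 7 and 2. Blvrb, a biliverdin reductase, had 1.79, 2.83, 3.28, 3.57 and 1.61 FPKM with WY-14643 and 1.66, 3.03, 2.49, 2.85 and 1.76 FPKM with vehicle, higher in 3 pairs and lower in 2.

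Superoxide dismutases turn superoxide into hydrogen peroxide ahead of the peroxidases. Sod1, the cytosolic copper and zinc form, had 49.5, 71.4, 58.7, 47.7 and 106 FPKM in WY-14643 replicates 6 to 10, against 42.9, 69.9, 51.3, 32.3 and 94.1 FPKM in vehicle replicates 1 to 5. It was higher in 5 of 5 pairs, by 0.03 to 0.55 on the log2 scale, with a log2 fold change of 0.23 (limma, matched adjusted p = 0.332). Its 95% interval was 0.05 to 0.40 in the matched fit and -0.43 to 0.89 without pairs. Sod2, the mitochondrial manganese form, had 6.29, 8.40, 6.68, 6.67 and 6.76 FPKM with WY-14643 and 6.37, 7.36, 6.14, 6.07 and 6.42 FPKM with vehicle, overlapping groups with 4 of 5 pairs higher. Extracellular Sod3 was below the filter at 0.215 ± 0.163 and 0.181 ± 0.130 FPKM, from 2 to 40 reads per library.

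Most of the variation of these genes lay between matched pairs, as it did across the table. The median share of the sum of squares between pairs was 81.6% over the 32 genes and 83.6% over all genes tested. It reached 97.9% for Gpx2 and Prdx6 and was lowest for Gss at 30.3%. The largest shares between treatments were 48.7% for Ftl1, 45.9% for Gpx1, 38.2% for Hmox1 and 37.3% for Gclc. The smallest were 0.0776% for G6pdx and 0.671% for Prdx6. Over all genes tested the median was 2.27%, which is not a like measure for shares picked as the largest. Replicates 9 and 4 had the lowest level of their group for Nqo1, Gclm, Gpx2, Txn1, Taldo1 and Sod1, and the highest for Slc7a11 and Osgin1. Replicates 10 and 5 showed the reverse for Slc7a11 and Osgin1 and had the highest Gpx2 and Sod1.

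**Figure D4:**
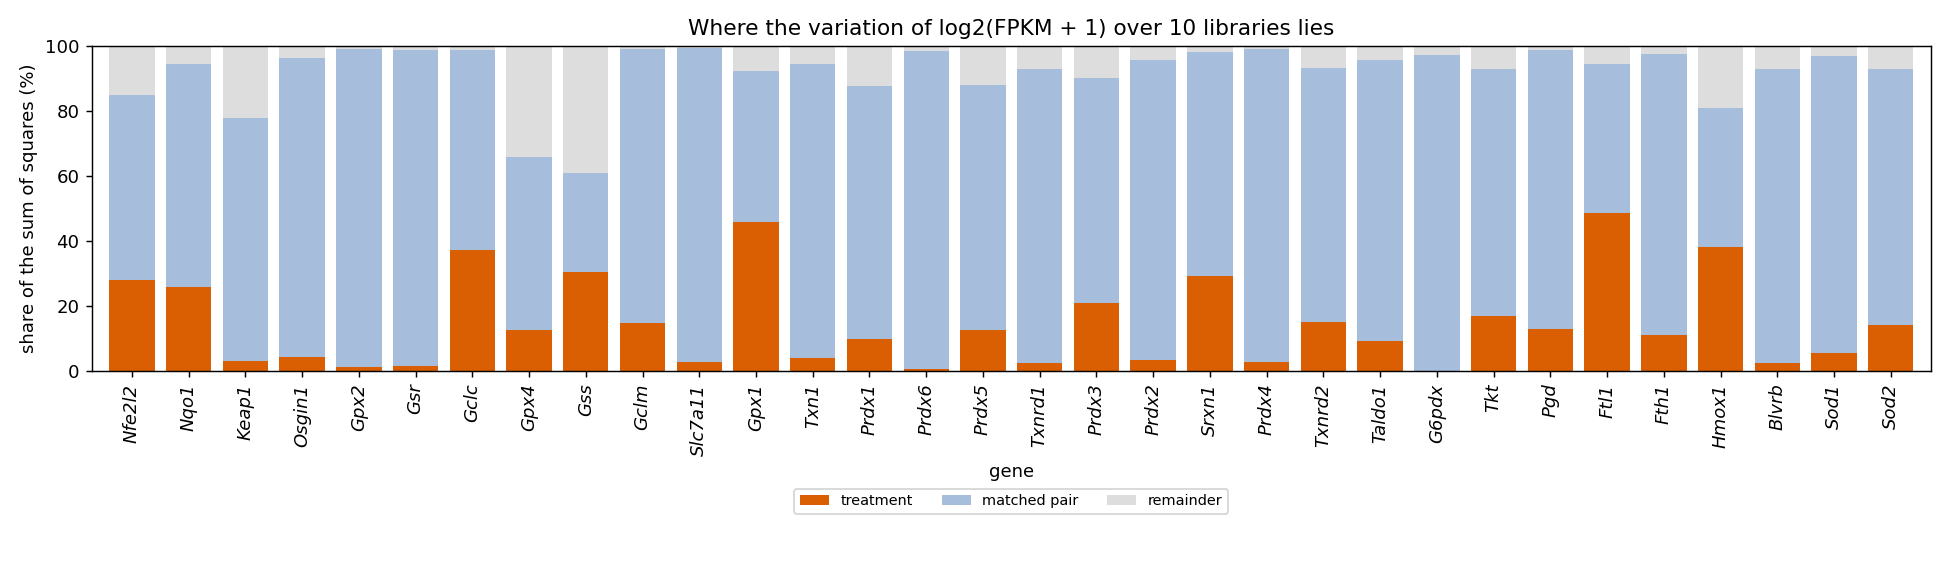
Share of the sum of squares of log2(FPKM + 1) over the 10 libraries that lies between treatments (orange), between matched pairs (blue) and in the remainder (grey) for each of the 32 tested genes. Treatment reaches 48.7% in Ftl1 and 45.9% in Gpx1, and pairs take 97.9% in Gpx2.

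The same pairs differed in cell type and cycling markers. The 5 proliferation markers (Mki67, Top2a, Pcna, Mcm2 and Mcm5) summed to 60.2 FPKM in WY-14643 replicate 9 and 48.5 FPKM in vehicle replicate 4, and to 147 to 264 FPKM in the other WY-14643 libraries and 126 to 278 FPKM in the other vehicle libraries. The colonocyte markers, of which Car4 was at 0 throughout and Car1 made up most, summed to 342, 849, 457, 1651 and 50.6 FPKM in WY-14643 replicates 6 to 10, against 104, 914, 260.3, 578 and 30.3 FPKM in vehicle replicates 1 to 5. That sum was higher with WY-14643 in 4 of 5 pairs, and the sum of 6 goblet markers in 1 of 5. Single markers did not all follow the sums. Among tested colonocyte markers Car1 and Slc26a3 were higher in 4 pairs, Guca2a in 3 and Slc20a1 in 0. Among goblet markers Fcgbp was higher in 4 pairs, Tff3 in 2, Agr2 and Spink4 in 1, and Muc2 and Clca1 in 0. Of the 4 colonocyte, 6 goblet, 3 stem and 5 proliferation markers tested, 0 passed in limma with or without pairs. At an unadjusted p under 0.05 there were 6 in the matched fit and 0 without pairs. Car1 and Slc26a3 were higher and Slc20a1, Muc2, Clca1 and Lgr5 lower, where 5.48% of all genes were higher and 5.09% lower. Matched voom called 1 lower, the stem cell receptor Lgr5, where it called 0.367% of all genes lower. The stem markers Ascl2 and Axin2 were higher in 4 and 1 of 5 pairs. In bulk RNA a change in the share of a cell type and a change of RNA per cell cannot be told apart, and the part of these marker differences in the antioxidant genes was not tested.

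Another 69 genes of the same pathways, listed beside the 34, had a median log2 fold change closer to that of all genes. Of these, 62 were tested, with 44 means higher and 18 lower, and the median was 0.05. In 5 of 5 pairs 16 genes were higher and 2 lower, where 5.63% of all genes tested were higher and 6.09% lower. Without pairs 0 passed, and in the matched fit 2 rose, where 0.287% of all genes were called higher. Cbr3, a carbonyl reductase known as an NRF2 target, had 9.09, 22.3, 9.56, 14.3 and 2.89 FPKM in WY-14643 replicates 6 to 10, against 2.61, 10.3, 2.76, 3.95 and 1.49 FPKM in vehicle replicates 1 to 5. Idh1, the cytosolic isocitrate dehydrogenase that makes NADPH, had 192, 257, 191, 149 and 219 FPKM with WY-14643 and 144, 171, 144, 94.8 and 169 FPKM with vehicle. Their log2 fold changes were 1.26 and 0.48 (limma, matched adjusted p = 0.0381 for Cbr3 and 0.0318 for Idh1; 1.0 without pairs for each).

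Matched voom called 6 of the 62 higher and 0 lower, where it called 1.19% of all genes higher and 0.367% lower. The 6 were Cbr3, Idh1, Gstm1, Cat, Cbr1 and Ugdh. The last 4 (adjusted p = 0.00152, 0.0272, 0.0316 and 0.0428, voom and limma) did not pass limma on log2(FPKM + 1) with or without pairs. Cbr1, a carbonyl reductase, averaged 33.9 ± 19.1 FPKM with WY-14643 and 21.8 ± 13.1 FPKM with vehicle, and Ugdh, which makes UDP-glucuronic acid, 37.7 ± 11.5 and 32.0 ± 14.0 FPKM. Gstm1, a glutathione S-transferase, averaged 37.9 ± 13.9 FPKM with WY-14643 and 22.8 ± 6.95 FPKM with vehicle, and Mgst3, a microsomal one, 77.7 ± 18.0 and 42.1 ± 12.2 FPKM, each higher in 5 of 5 pairs. Gpx7, a peroxidase of the endoplasmic reticulum, averaged 3.85 ± 1.59 and 2.27 ± 1.36 FPKM in WY-14643 and vehicle libraries. Txnip, which binds and inhibits thioredoxin, averaged 127 ± 48.3 FPKM with WY-14643 and 71.7 ± 20.9 FPKM with vehicle, and Cat, the peroxisomal catalase, 35.7 ± 5.55 and 28.5 ± 4.15 FPKM. The iron list had 0 genes higher in 5 of 5 pairs, and its named genes Slc11a2, an iron importer, and Hmox2, the constitutive haem oxygenase, averaged 7.83 ± 1.01 and 8.59 ± 0.806 FPKM and 23.6 ± 1.44 and 22.8 ± 1.84 FPKM in WY-14643 and vehicle libraries. The NADPH list included Pgls, the lactonase after G6pdx, at 12.5 ± 1.35 and 10.9 ± 1.03 FPKM, and Nnt, the mitochondrial transhydrogenase, which was listed at 0 in all 10 libraries. Cbr1, Ugdh and Nnt were singled out after their values were seen.

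Positions of 7 of the 34 genes, chosen after their values were seen, are those of the table (build mm39). Nqo1 is on chromosome 8 from 108114857 to 108129838, Gclc on chromosome 9 from 77661817 to 77701767, Gclm on chromosome 3 from 122039206 to 122064381, Gpx1 on chromosome 9 from 108216102 to 108217542, Srxn1 on chromosome 2 from 151947436 to 151953296, Ftl1 on chromosome 7 from 45107368 to 45109308 and Hmox1 on chromosome 8 from 75820249 to 75827217. These are whole-gene spans.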

How the data were processed

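RNA of 10 mouse colon organoid libraries was analysed from a table of 56748 genes. The values the authors deposited are FPKM per gene, with gene lengths beside them. According to the submitters' processing notes, the genome build was mm39 and the tools included featureCounts 1.5.0-p3 and HISAT2 2.0.5. The annotation release and any strand setting: not given in the sources used here. FPKM times gene length gave whole multiples of the smallest value in 100% of values above 0 (tolerance 0.01), so reads were recovered for depth and for voom.

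Groups follow the treatment label. Genes with a mean of at least 0.5 FPKM (13607, 24.0% of the table) were tested by limma 3.58.1 in R 4.3.3 on log2(FPKM + 1), with trended, robust eBayes and Benjamini-Hochberg adjustment over all of them (threshold 0.05). Fold changes on this scale understate the change of low genes, and errors beside log2 values are limma's SE. Intervals are 95%. In the labels no number occurs in both groups, and the pairing (vehicle n with WY-14643 n + 5) comes from the numerical order and the correlations of deviations, every one over 0.1. Alternatives were voom on recovered reads, library quality weights, other pseudocounts and filters, median-ratio scaling and leaving out each library or pair. The limma fits without and with pairs and voom with pairs were tested on simulated data with known changes. The simulation took the pairing as given, and its changes were larger than those of most members. It therefore tests neither the pairing nor the recovery of changes as small as these. The other alternatives were not. Figures used matplotlib 3.10.9 in Python 3.11.15.

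The members, the lists of other genes and markers, and the tests were chosen with earlier results of these data known. Genes given library by library are Nfe2l2, Keap1, any member passing limma with or without pairs, and per group of roles the most abundant, the most positive and the lowest in log2 fold change; others were chosen after their values were seen. Other pathway genes are those passing either limma fit and, per list, the 2 with the smallest p without pairs. Promoter windows are RefSeq's (GRCm38.p6), a different build from that of the levels.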

Additional observations from a re-analysis of the deposited data

Results flagged for a closer look

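Among the 68 groups of 5 libraries examined (34 genes, each group), 4 held a library whose gap to its nearest neighbour exceeded Dixon's 95% critical share of the range. By chance about 1 group in 20 would. Osgin1 stood at 8.76 FPKM in WY-14643 replicate 9, with the other 4 at 3.21 to 4.50 FPKM, and its matched vehicle replicate 4 was also the highest of its group at 7.69 FPKM. Taldo1 stood at 99.7 FPKM in WY-14643 replicate 9, with the others at 132 to 142 FPKM, and vehicle replicate 4 was the lowest vehicle library at 80.4 FPKM. Sod2 stood at 8.40 FPKM in WY-14643 replicate 7 (others 6.29 to 6.76 FPKM) and at 7.36 FPKM in the matched vehicle replicate 2 (others 6.07 to 6.42 FPKM).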

How the results depend on the processing

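Counts of calls depended on the pairing and, within the paired fits, on the filter and on the change to voom, which alters scale and weights together. Without pairs they were 0 higher and 0 lower, of all genes and of members, with a pseudocount of 0.1, no filter, a filter of 1 FPKM, voom or median-ratio scaling, and 18 higher and 3 lower of all genes, with 0 members, under library quality weights. Leaving out 1 library gave 0 to 2 higher, 0 lower and 0 members. With the replicate block 39 genes were higher and 4 lower, with 0 members, against 37 and 3 with a pseudocount of 0.1, 2 and 0 without a filter, and 162 and 50 with voom, where 8 members were higher. Leaving out pairs 1 to 5 in turn under the block gave 27, 3, 2, 12 and 30 higher and 6, 0, 0, 1 and 3 lower, with 3 members without pair 1 (Gclm, Gpx1 and Ftl1) and 0 otherwise. With block and voom the same repeats gave 215, 144, 84, 100 and 127 higher and 122, 25, 10, 26 and 24 lower, with 9, 5, 3, 4 and 4 members higher and, without pair 1, 1 lower (Prdx5). The cause was not tested.

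Leaving out 1 library without pairs turned the sign of 12 log2 fold changes, whose ranges were -0.01 to 0.10 for Keap1, -0.00037 to 0.41 for Osgin1, -0.05 to 0.21 for Gsr, -0.11 to 0.77 for Slc7a11, -0.19 to 0.59 for Gpx2, -0.04 to 0.31 for Txn1, -0.03 to 0.16 for Txnrd1, -0.00035 to 0.19 for Prdx2, -0.30 to 0.02 for Prdx4, -0.07 to 0.14 for Prdx6, -0.14 to 0.23 for G6pdx and -0.0022 to 0.20 for Blvrb. With the block, G6pdx was -0.0023 without pair 2 and -0.02 without pair 3, and -0.0016 and -0.02 with voom added. Each count rests on 5 libraries a group, and Gpx3 and Sod3 were too low to test.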
